A study of Homo sapiens with 9 samples.

Results

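The 9 genes described here belong to the transforming growth factor beta (TGF-β) pathway. They were chosen by name for their role, with earlier results of these data known. They comprise 2 target genes (PMEPA1 and TGFBI), 2 SMAD corepressors (SKIL, itself a TGF-β target, and SKI), 3 latent TGF-β binding proteins (LTBP1, LTBP2 and LTBP3) and 2 inhibitors (BAMBI and SMURF1). All 9 were among the 59453 gene names of the count table, and all 9 were among the 16556 genes that passed the filter on low counts and were tested. The cells sequenced were MDA-MB-231, a human triple-negative breast cancer line, with 3 libraries in each of 3 groups: untreated cells, cells given TEPA for 8 h and cells given TEPA for 24 h. TEPA is a copper chelator, and the labels give its concentration as 8 mM, while the study's RNA sequencing methods give a lower one. The study spells out this abbreviation in more than 1 way, so which polyamine was used is not certain. No gene was deleted or introduced in any group. A single untreated group, whose culture time is not given in the sources used here, served both times, so the 8 h and the 24 h comparison share their control libraries. In the comparison of 24 h with 8 h, time in culture and time in TEPA cannot be told apart. The same may hold for either comparison with untreated cells, as their culture time is not given. Whether the 3 libraries of a group came from separate cultures is not stated, so p-values measure the spread between these libraries, which may be technical.

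Cells secrete TGF-β in a latent form, held inside its own propeptide and tied to the extracellular matrix by latent TGF-β binding proteins until integrins, proteases or thrombospondin release it. The active ligand brings together type I and type II receptor kinases, which phosphorylate SMAD2 and SMAD3. These enter the nucleus with SMAD4 and switch target genes on or off. Among the induced genes are brakes on the pathway itself, such as the corepressor SKIL, the decoy receptor BAMBI and the inhibitory SMADs. In breast cancer cells of mesenchymal type the pathway is known for its part in migration and invasion.

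Total counts per library ran from 34633755 to 49342659. Within groups, untreated replicates 1 and 2 were the least alike pair over all genes. Their counts differed by a chi-square of 21.4 per degree of freedom, against 2.4 to 8.6 for the other pairs. The untreated group enters both comparisons with untreated cells. Markers of the line were mostly as labelled. VIM, CD44 and KRT18 were at 3242 to 4435, 793 to 1105 and 246 to 308 CPM (counts per library depth, scaled by TMM factors). PGR was at 0 counts in all 9 libraries and ESR1 at no more than 9 counts. ERBB2 and EPCAM should also be low in this line. ERBB2 was present at 51.9 to 87.1 CPM and EPCAM was at 0.83 to 1.86 CPM. Of 17 markers of neuroblastoma, glioma, leukocytes, endothelium and fibroblasts, 7 were at 0 in every library, and only COL1A1 and PECAM1 exceeded 1 CPM anywhere. The summed fibroblast markers, nearly all COL1A1, were at 13.1 to 14.3 CPM in untreated cells, 31.9 to 32.8 at 8 h and 17.3 to 18.8 at 24 h. The summed endothelium markers, nearly all PECAM1, went the other way, at 2.98 to 4.16 CPM in untreated cells, 0.85 to 1.31 at 8 h and 7.16 to 8.98 at 24 h. Of the markers that should be low in this line, CDH1 averaged 0.62, 0.35 and 3.19 CPM in untreated, 8 h and 24 h libraries. The part of these marker levels in the results below was not tested. The share of counts from mitochondrial genes was 1.79 to 2.91% in untreated cells, 3.61 to 4.02% at 8 h and 1.89 to 2.02% at 24 h, so it moved with the 8 h group; its part in the results below was not tested, but leaving those genes out changed 1 of the 27 calls of the 9 genes, that of BAMBI at 8 h. In bulk RNA, fewer cells of a type and less RNA per cell cannot be told apart.

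The promoters are shown for the 5 genes whose 24 h libraries all lay on one side of the other 6 libraries, 4 below them (PMEPA1, TGFBI, LTBP1 and SMURF1) and 1 above them (BAMBI). Of all tested genes, 17.6% lay below and 16.8% above in the same way. RefSeq windows on GRCh38.p14 were found for 8 of the 9 genes, SKI being the other one, and where a gene had several windows the one at the start of its MANE Select transcript was taken. Each sequence runs 5′ to 3′ on the gene's strand from 250 bases before the start site to 20 bases after it. Capitals mark the SMAD box CAGAC or its reverse complement GTCTG.
PMEPA1 (chr20:57709996-57710265, minus strand): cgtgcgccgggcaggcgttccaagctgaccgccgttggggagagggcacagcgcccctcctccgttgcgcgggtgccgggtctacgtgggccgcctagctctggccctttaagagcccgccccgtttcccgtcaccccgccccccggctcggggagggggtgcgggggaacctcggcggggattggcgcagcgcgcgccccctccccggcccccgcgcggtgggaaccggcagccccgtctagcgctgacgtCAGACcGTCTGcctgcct
TGFBI (chr5:136028738-136029007, plus strand): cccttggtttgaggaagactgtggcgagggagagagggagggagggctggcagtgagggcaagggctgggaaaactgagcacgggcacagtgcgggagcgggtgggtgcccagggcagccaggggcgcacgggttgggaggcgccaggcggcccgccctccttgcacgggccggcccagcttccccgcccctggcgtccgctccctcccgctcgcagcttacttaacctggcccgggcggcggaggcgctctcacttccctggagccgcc
LTBP1 (chr2:32946703-32946972, plus strand): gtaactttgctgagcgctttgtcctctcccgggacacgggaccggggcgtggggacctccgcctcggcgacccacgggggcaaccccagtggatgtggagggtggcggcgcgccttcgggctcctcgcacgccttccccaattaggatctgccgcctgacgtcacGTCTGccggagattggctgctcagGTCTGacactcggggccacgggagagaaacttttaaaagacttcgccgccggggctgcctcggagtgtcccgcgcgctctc
SMURF1 (chr7:99144089-99144358, minus strand): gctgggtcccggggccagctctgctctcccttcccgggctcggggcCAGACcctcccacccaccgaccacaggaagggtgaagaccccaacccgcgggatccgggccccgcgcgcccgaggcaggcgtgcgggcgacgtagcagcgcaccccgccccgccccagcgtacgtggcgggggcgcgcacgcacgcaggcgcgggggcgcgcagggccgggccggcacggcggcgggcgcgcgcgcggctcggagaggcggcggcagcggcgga
BAMBI (chr10:28677271-28677540, plus strand): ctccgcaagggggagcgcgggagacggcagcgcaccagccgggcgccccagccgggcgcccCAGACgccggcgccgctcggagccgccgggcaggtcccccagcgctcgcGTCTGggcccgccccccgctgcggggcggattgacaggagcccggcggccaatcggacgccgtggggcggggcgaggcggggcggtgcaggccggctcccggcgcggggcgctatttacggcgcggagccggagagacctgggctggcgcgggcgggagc
In the full windows, which reach 50 bases past the start site, the SMAD box was found in 6 of the 8 promoters and in 45.3% of all 35116 windows of the same length. PMEPA1 held 2 matches, 1 on each strand, whose first bases lay 2 and 8 bases past the start site. LTBP1 held 2, beginning 85 and 61 bases before it, and BAMBI held 2, at 189 and 140 bases before it. SMURF1 and SKIL had 1 each before the start site and LTBP2 had 1 after it, while the windows of TGFBI and LTBP3 held none. The AP-1 motif TGANTCA, searched likewise, was in none of the 8 windows and in 7.7% of all windows. Of the 4 genes lowest at 24 h, PMEPA1, LTBP1 and SMURF1 held the SMAD box and TGFBI did not. These motifs are short and were not measured as binding sites, and their part in the changes was not tested.

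At 8 h, 5 of the 9 genes were higher than in untreated cells (SKIL, SKI, PMEPA1, LTBP3 and BAMBI), 2 were lower (LTBP1 and LTBP2) and 2 were not called (TGFBI and SMURF1). By 24 h the target genes PMEPA1 and TGFBI, LTBP1 and SMURF1 were lower than in untreated cells, and SKIL, SKI and BAMBI were higher. The rule for a call was an adjusted p below 0.05 (edgeR's quasi-likelihood test, Benjamini-Hochberg over every tested gene). Calls were common across the transcriptome by this rule: 49.6% of all tested genes were called at 8 h, 52.5% at 24 h and 54.8% between 24 h and 8 h, against 7, 7 and 8 of the 9 genes. By direction, the share of all genes was 25.2% higher and 24.5% lower at 8 h, 25.7% and 26.8% at 24 h, and 26.0% and 28.8% from 8 h to 24 h. The median log2 fold change of the 9 genes was 0.15 at 8 h and -0.09 at 24 h, and -0.20 at 24 h against 8 h, beside medians of 0.00, 0.00 and -0.02 over all tested genes. Most changes were small. A call with a log2 fold change past 0.5 up or down was reached by 1 gene at 8 h (SKIL), by 2 genes at 24 h (TGFBI and LTBP1) and by 2 genes between the times (TGFBI and PMEPA1), where 17.8%, 18.7% and 21.2% of all genes passed that rule.

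**Figure D1:**
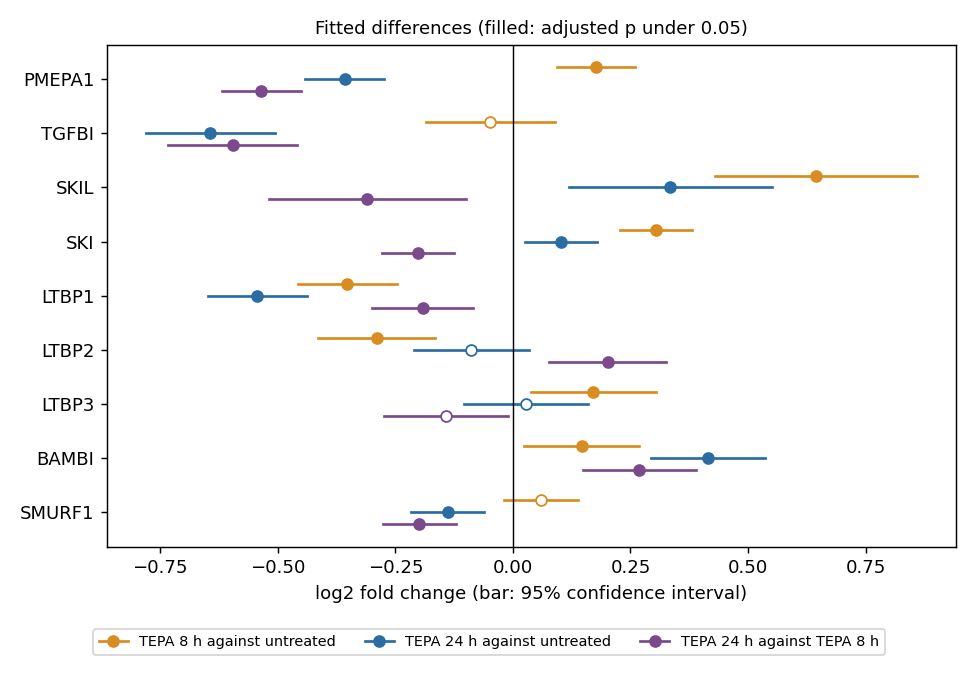
Fitted log2 fold change (x axis) of each of the 9 genes in the 3 comparisons, with bars for the 95% confidence interval and filled points for an adjusted p under 0.05. PMEPA1 lies right of 0 at 8 h (0.18) and left of it at 24 h (-0.36), while LTBP1 lies left of 0 in all 3 comparisons and BAMBI right of it.

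PMEPA1 (chromosome 20, 57648392 to 57711536, minus strand of GRCh38) encodes a membrane protein that is induced by TGF-β and binds receptor-activated SMADs, which limits the signal. It was at 159, 145 and 152 CPM in the untreated libraries, at 170, 172 and 173 CPM at 8 h and at 115, 120 and 120 CPM at 24 h. The groups did not overlap in any comparison, with the 8 h libraries highest and the 24 h libraries lowest. Against untreated cells PMEPA1 rose by a log2 fold change of 0.18 ± 0.04 (SE, n = 3 per group) at 8 h (edgeR adjusted p = 0.0014) and fell by 0.36 ± 0.04 on the log2 scale at 24 h (edgeR adjusted p = 1.7e-06). The 24 h level was 1.45-fold below the 8 h level (log2 fold change -0.53 ± 0.04, adjusted p = 2.2e-08). Groups that do not overlap in CPM made up 57.8%, 57.2% and 62.0% of all tested genes in the comparisons of 8 h with untreated, 24 h with untreated and 24 h with 8 h, against 6, 7 and 7 of the 9 genes.

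TGFBI (chromosome 5, 136028988 to 136063818, plus strand) encodes a secreted matrix protein that binds collagens and integrins. Its libraries held 429, 337 and 362 CPM in untreated cells, 359, 365 and 368 CPM at 8 h, and 238, 252 and 232 CPM at 24 h. Untreated replicate 1 was the highest of all, and the untreated group spread widely around the 8 h group, while every 24 h library lay below every other library. At 8 h the log2 fold change was -0.05 with a 95% confidence interval from -0.18 to 0.09 (edgeR adjusted p = 0.57). TGFBI fell by 0.64 ± 0.06 (SE, n = 3 per group) on the log2 scale at 24 h, to a level 1.56-fold below that of untreated cells (adjusted p = 6.4e-07). It was also 1.51-fold lower at 24 h than at 8 h (edgeR adjusted p = 1.3e-06).

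**Figure D2:**
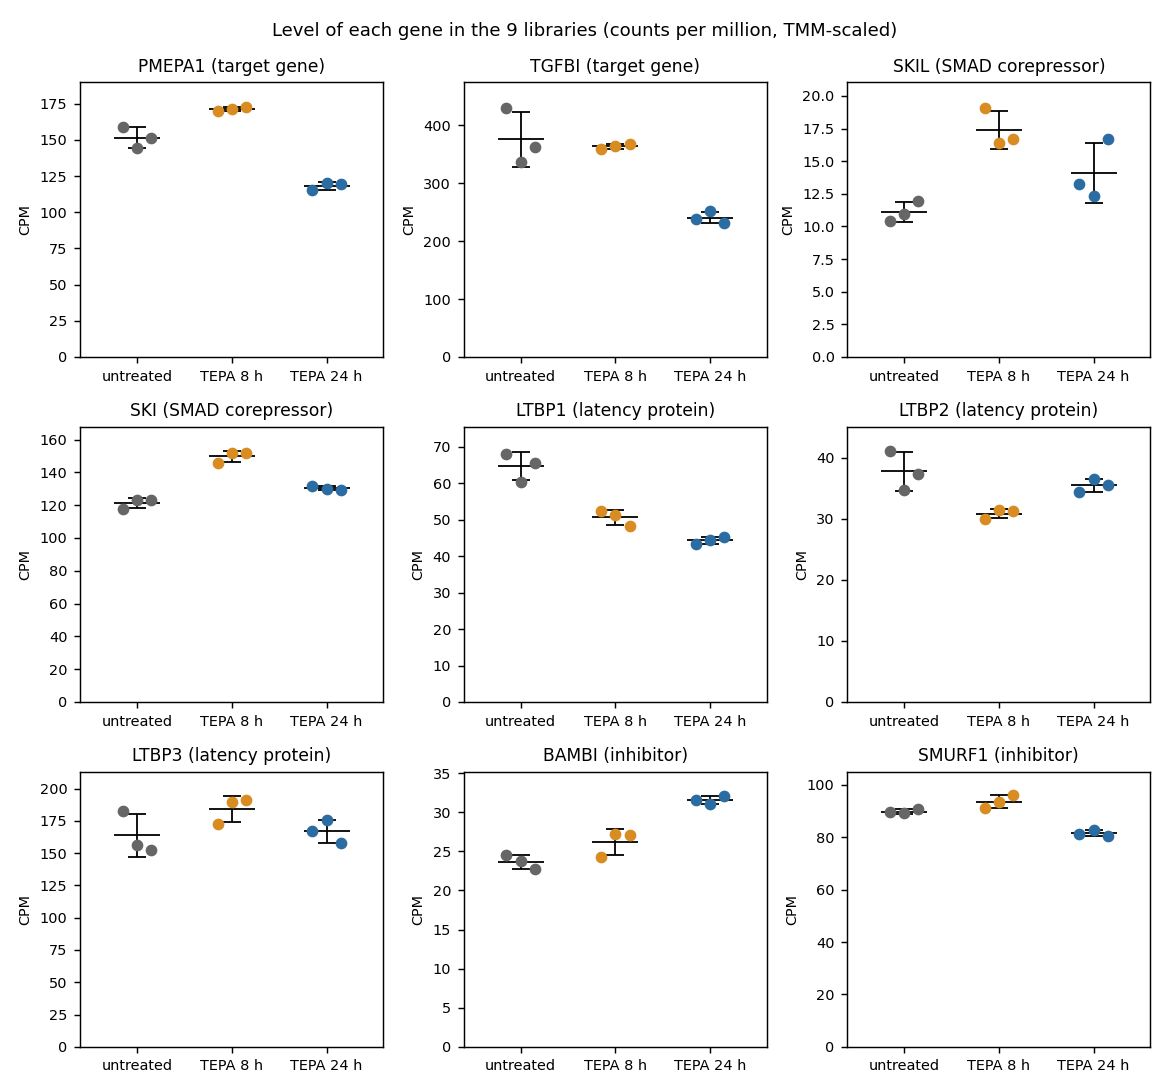
CPM on a linear axis from 0 for each of the 9 genes in 9 panels, with 1 point per library and a line with bars for the mean ± SD of each group. All 3 points of TEPA 24 h lie below the other 6 in PMEPA1, TGFBI, LTBP1 and SMURF1, and above them in BAMBI.

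The corepressors SKIL (chromosome 3, 170357342 to 170396835, plus strand) and SKI (chromosome 1, 2227388 to 2310213, plus strand) bind SMAD complexes on DNA and recruit histone deacetylase complexes, which keeps target genes off. SKIL was at 10.5, 11.0 and 12.0 CPM in untreated cells, 19.0, 16.4 and 16.7 CPM at 8 h, and 13.3, 12.3 and 16.7 CPM at 24 h. All TEPA libraries lay above the untreated ones, and TEPA 24 h replicate 3 reached the 8 h range. SKIL rose 1.56-fold at 8 h (log2 fold change 0.64 ± 0.10, SE, n = 3 per group, adjusted p = 7.5e-05), the largest change of the 9 genes at that time, and was 1.26-fold above untreated cells at 24 h (0.33 ± 0.10, adjusted p = 0.011). The 24 h value rested on that replicate: without it the log2 fold change was 0.20 (edgeR adjusted p = 0.070). SKI was at 118, 123 and 123 CPM in untreated cells, 146, 152 and 152 CPM at 8 h, and 132, 130 and 129 CPM at 24 h. Its 3 groups were fully apart, in the order untreated, 24 h and 8 h. The log2 fold change of SKI was 0.30 ± 0.04 at 8 h (edgeR adjusted p = 5.2e-06) and 0.10 ± 0.04 at 24 h (edgeR adjusted p = 0.027). The 24 h call did not hold without untreated replicate 1 (0.08, adjusted p = 0.082) or TEPA 24 h replicate 1 (0.09, adjusted p = 0.10). Both corepressors fell from 8 h to 24 h, SKIL by 0.31 ± 0.10 (edgeR adjusted p = 0.014) and SKI by 0.20 ± 0.04 (edgeR adjusted p = 2.0e-04) on the log2 scale. For SKIL that last call was lost without TEPA 8 h replicate 1 (edgeR adjusted p = 0.086) or without TEPA 24 h replicate 1 or 2 (edgeR adjusted p = 0.067 and 0.079).

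The latency proteins moved in different directions. LTBP1 (chromosome 2, 32946953 to 33399509, plus strand) binds latent TGF-β covalently and deposits it in the matrix. It was at 68.0, 60.4 and 65.7 CPM in untreated cells, 52.4, 51.2 and 48.3 CPM at 8 h, and 43.4, 44.5 and 45.3 CPM at 24 h. Every 8 h library was below every untreated library, and every 24 h library was lower again. LTBP1 fell by 0.35 ± 0.05 (SE, n = 3 per group) on the log2 scale at 8 h (edgeR adjusted p = 2.8e-05) and by 0.54 ± 0.05 at 24 h, to 1.46-fold below untreated cells (adjusted p = 2.4e-07). It was the one of the 9 genes called lower in all 3 comparisons, with a further fall by 0.19 ± 0.05 between the times (adjusted p = 0.0044).

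LTBP2 (chromosome 14, 74498183 to 74612378, minus strand) is a fibrillin-associated matrix protein of the same family that does not bind latent TGF-β. Its level was 41.1, 34.8 and 37.4 CPM in untreated cells, 29.9, 31.4 and 31.3 CPM at 8 h, and 34.4, 36.6 and 35.5 CPM at 24 h. The 8 h libraries lay below both other groups, which overlapped each other. LTBP2 fell by 0.29 ± 0.06 (SE, n = 3 per group) on the log2 scale at 8 h (edgeR adjusted p = 7.2e-04) and rose by 0.20 ± 0.06 from 8 h to 24 h (edgeR adjusted p = 0.0084). Its difference from untreated cells at 24 h was -0.09 with a 95% confidence interval from -0.21 to 0.03 (edgeR adjusted p = 0.22), and became a call without untreated replicate 2 (-0.15, adjusted p = 0.042).

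LTBP3 (chromosome 11, 65538559 to 65558930, minus strand), which also carries latent TGF-β, was at 183, 156 and 153 CPM in untreated cells, 173, 190 and 191 CPM at 8 h, and 167, 176 and 158 CPM at 24 h. The groups overlapped in every comparison, with untreated replicate 1 inside the 8 h range. Its log2 fold change at 8 h was 0.17 ± 0.06 (SE, n = 3 per group, adjusted p = 0.032), a call that was lost without untreated replicate 2 (0.13, adjusted p = 0.12), untreated replicate 3 (0.12, adjusted p = 0.18), TEPA 8 h replicate 2 (0.15, adjusted p = 0.12) or TEPA 8 h replicate 3 (0.14, adjusted p = 0.13). At 24 h the difference from untreated cells was 0.03, with a 95% confidence interval from -0.10 to 0.16 (edgeR adjusted p = 0.73), and without 1 library it ran from -0.02 (untreated replicate 3 left out) to 0.11 (untreated replicate 1 left out), never a call. Between the times it was -0.14 ± 0.06 (edgeR adjusted p = 0.063), which became a call without untreated replicate 1 (edgeR adjusted p = 0.0091), TEPA 8 h replicate 1 (edgeR adjusted p = 0.033) or TEPA 24 h replicate 2 (edgeR adjusted p = 0.038).

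LTBP4, the family member outside the 9 genes, was at 99.8, 86.4 and 88.1 CPM in untreated cells, 107, 119 and 118 CPM at 8 h, and 107, 111 and 97.0 CPM at 24 h. It was higher at both times, by a log2 fold change of 0.33 (edgeR adjusted p = 3.7e-04) at 8 h and 0.20 (edgeR adjusted p = 0.011) at 24 h, although the 24 h libraries overlapped the untreated ones. Without untreated replicate 2 or 3, or TEPA 24 h replicate 2, the 24 h value of LTBP4 was 0.16, 0.17 and 0.16, no longer a call (adjusted p = 0.051, 0.056 and 0.057).

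BAMBI (chromosome 10, 28677510 to 28682932, plus strand) encodes a pseudoreceptor that resembles type I receptors but lacks the kinase domain, and so takes up receptor partners without passing the signal on. It was at 24.5, 23.8 and 22.7 CPM in untreated cells, 24.2, 27.2 and 27.1 CPM at 8 h, and 31.5, 31.0 and 32.1 CPM at 24 h. TEPA 8 h replicate 1 lay within the untreated range, and all 24 h libraries were above all others. BAMBI was 1.33-fold higher at 24 h (log2 fold change 0.41 ± 0.06, SE, n = 3 per group, adjusted p = 1.7e-05) and higher at 24 h than at 8 h (0.27 ± 0.06, adjusted p = 8.1e-04). The 8 h difference of 0.15 ± 0.06 (edgeR adjusted p = 0.046) stood at the threshold. That call was lost in 7 of the 9 fits without 1 library (0.11 to 0.14, adjusted p = 0.054 to 0.20) and held without untreated replicate 1 or TEPA 8 h replicate 1.

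SMURF1 (chromosome 7, 99027440 to 99144108, minus strand) is a ubiquitin ligase that marks SMADs and, through SMAD7, the receptor for degradation. Its libraries were at 89.5, 89.2 and 90.7 CPM in untreated cells, 91.2, 93.3 and 96.2 CPM at 8 h, and 81.3, 82.7 and 80.5 CPM at 24 h. The 3 groups did not overlap, though untreated and 8 h libraries came within 1 CPM of each other. SMURF1 fell by 0.14 ± 0.04 (SE, n = 3 per group) on the log2 scale at 24 h (edgeR adjusted p = 0.0048) and by 0.20 ± 0.04 from 8 h to 24 h (edgeR adjusted p = 2.7e-04). At 8 h its log2 fold change was 0.06, with a 95% confidence interval from -0.02 to 0.14 (edgeR adjusted p = 0.19). The related ligase SMURF2, which also acts through SMAD7, was at 107, 115 and 116 CPM in untreated cells, 135, 125 and 134 CPM at 8 h, and 100, 102 and 105 CPM at 24 h. SMURF2 was higher at 8 h (0.22, adjusted p = 5.2e-04) and lower at 24 h (-0.14, adjusted p = 0.012), the latter not without untreated replicate 3 (edgeR adjusted p = 0.062) or TEPA 24 h replicate 1 (edgeR adjusted p = 0.057).

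Per kb of merged exons (all exons of GENCODE v44 joined, which overstates the length of a gene with rare long transcripts), the untreated level was highest in TGFBI at 48.7 ± 6.18 CPM per kb (SD, n = 3) and lowest in SKIL at 1.37 ± 0.10 CPM per kb. Between them, in falling order, stood PMEPA1 (26.4 ± 1.23), SKI (18.1 ± 0.49), SMURF1 (14.3 ± 0.13), LTBP3 (14.2 ± 1.44), BAMBI (11.1 ± 0.42), LTBP1 (8.81 ± 0.53) and LTBP2 (4.16 ± 0.35), all in CPM per kb. SMURF1 and LTBP3 overlapped, and no other neighbours in the order did. At 24 h BAMBI, at 14.7 ± 0.24 CPM per kb, was above SMURF1 at 13.0 ± 0.18 CPM per kb and overlapped LTBP3 at 14.5 ± 0.78 CPM per kb. The order at the ends was the same in the TEPA groups, with TGFBI highest and SKIL lowest.

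**Figure D3:**
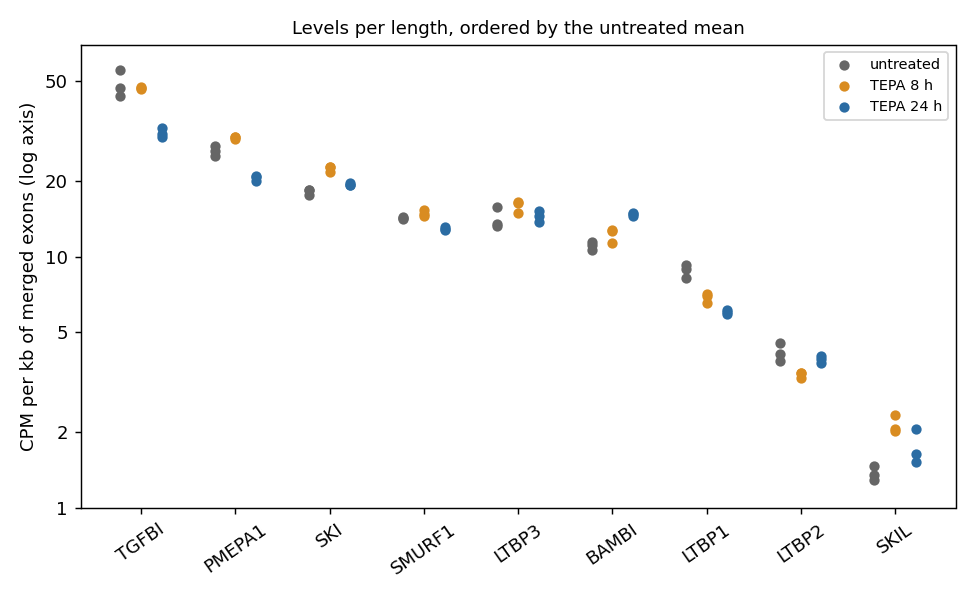
Level per length (CPM per kb of merged exons, log axis) of the 9 genes in the 9 libraries, 1 point per library, coloured by group and ordered by the untreated mean. TGFBI at the left and SKIL at the right are the ends of the range in each group, at 48.7 and 1.37 CPM per kb in untreated cells.

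Other genes of the pathway were counted in 4 lists that leave out the 9 genes. Some genes, such as SMAD7 and THBS1, are in more than 1 list and are counted in each. Of the latency and activation list, 20 of 26 names were tested. At 8 h, 4 were higher and 11 lower (median log2 fold change -0.26), and at 24 h 5 were higher and 8 lower (median -0.03), beside medians of 0.00 over all tested genes at both times. Called were 75% of the tested list at 8 h and 65% at 24 h. Of all tested genes, 25.2% were higher and 24.5% lower at 8 h (49.6% called). At 24 h, 25.7% were higher and 26.8% lower (52.5% called). THBS1, a matrix glycoprotein that activates latent TGF-β, was the largest rise at 8 h, with 507, 631 and 602 CPM in untreated cells, 1059, 1030 and 1044 CPM at 8 h, and 852, 832 and 794 CPM at 24 h. Its log2 fold change was 0.85 at 8 h (edgeR adjusted p = 3.2e-08) and 0.51 at 24 h (edgeR adjusted p = 3.6e-06), with no overlap between the groups. ITGB3, a subunit of an integrin that binds latent TGF-β, and FBLN1, a matrix glycoprotein, were lower at 8 h (-0.84 and -0.79, adjusted p = 3.1e-06 and 3.7e-07). At 24 h FBLN1 was higher than in untreated cells (0.41, adjusted p = 9.4e-05), and ITGB3 was at -0.17 (adjusted p = 0.12). The 24 h value of ITGB3 became a call without untreated replicate 2 (-0.24, edgeR adjusted p = 0.045) and with no filter (-0.18, edgeR adjusted p = 0.032). At 24 h PLAU, the urokinase protease that generates plasmin, and HTRA1, a secreted protease, were lower (-0.76 and -0.70, adjusted p = 5.3e-10 and 7.9e-06). Both were already lower at 8 h (-0.25 and -0.63, edgeR adjusted p = 7.3e-05 and 2.8e-05). HTRA1 was not called between the times (-0.07, edgeR adjusted p = 0.57).

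Of the inhibitors and ubiquitin control list, 26 of 28 were tested, and calls were about even: 7 higher and 6 lower at 8 h, 8 and 8 at 24 h, with medians of 0.00 and 0.01. Called were 50% of the tested list at 8 h and 61.5% at 24 h, beside 49.6% and 52.5% of all tested genes. The largest rises were those of the inhibitory SMADs, SMAD7 at 8 h and SMAD6 at 24 h. SMAD7, which blocks the receptor and recruits SMURF ligases to it, was at 18.1, 20.5 and 17.1 CPM in untreated cells, 32.8, 31.9 and 30.9 CPM at 8 h, and 21.5, 21.5 and 20.4 CPM at 24 h. It rose by a log2 fold change of 0.78 at 8 h (edgeR adjusted p = 1.4e-07), and its 24 h libraries overlapped the untreated ones (0.19, adjusted p = 0.027, a call lost in 4 of the 9 fits without 1 library, those without untreated replicate 1 or 3 or TEPA 24 h replicate 1 or 2, at 0.13 to 0.17, adjusted p = 0.060 to 0.15). SMAD6, the inhibitory SMAD of the BMP branch, was at 52.8, 38.9 and 41.9 CPM in untreated cells, 56.3, 60.1 and 60.1 CPM at 8 h, and 95.9, 102 and 95.8 CPM at 24 h, with log2 fold changes of 0.40 (edgeR adjusted p = 6.3e-04) and 1.14 (edgeR adjusted p = 1.1e-08). The order of their rises was reversed, SMAD7 being higher at 8 h than at 24 h and SMAD6 higher at 24 h than at 8 h. FSTL3, a secreted inhibitor of activins, was higher at 8 h (0.53, adjusted p = 3.6e-07) and lower than untreated at 24 h (-0.54, adjusted p = 2.5e-07). VASN, a membrane protein that binds TGF-β, was lower at 8 h (-0.69, adjusted p = 6.4e-06), with a 24 h value of 0.17 (adjusted p = 0.094). The 24 h value of VASN became a call without untreated replicate 1 (0.26, edgeR adjusted p = 0.0057) and with no filter (0.16, edgeR adjusted p = 0.024). NEDD4L, a ubiquitin ligase for SMADs, and FST, an activin-binding protein, were lower at 24 h (-0.59 and -0.58, adjusted p = 5.4e-07 and 4.2e-05). NEDD4L was already lower at 8 h (-0.23, edgeR adjusted p = 0.0035). FST stood at the threshold at 8 h (0.21, adjusted p = 0.0498). That call was lost without untreated replicate 1 or any 1 of the 6 TEPA libraries (0.11 to 0.24, adjusted p = 0.059 to 0.24). With every library kept, it was also lost with RLE factors, mitochondrial genes left out, only the groups compared or the replicate number as a block (edgeR adjusted p = 0.054 to 0.076). DESeq2 did not call it either (DESeq2 adjusted p = 0.074). LDLRAD4 was too low to be tested.

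Of 32 other TGF-β target genes, 28 were tested: 10 were higher and 11 lower at 8 h (median log2 fold change -0.03), and 9 were higher and 12 lower at 24 h (median 0.02). From 8 h to 24 h, 7 were higher and 17 lower (median -0.27, beside -0.02 over all tested genes). Called were 75% of the tested list at 8 h, 75% at 24 h and 85.7% between the times. The shares of all tested genes were 49.6%, 52.5% and 54.8%, the last made up of 26.0% higher and 28.8% lower. COL1A1, a chain of type I collagen, had the largest rise of this list at 8 h, from 14.1, 13.7 and 13.1 CPM to 32.8, 32.8 and 31.8 CPM (log2 fold change 1.25, adjusted p = 5.1e-10). COL1A1 was still above untreated cells at 24 h (0.40, edgeR adjusted p = 2.8e-05). NEDD9, a scaffold of focal adhesions, was at 2.37, 1.20 and 1.83 CPM in untreated cells, 0.75, 0.55 and 1.01 CPM at 8 h and 4.16, 5.12 and 4.84 CPM at 24 h, so it was lower at 8 h (-1.21, adjusted p = 0.0011) and higher at 24 h (1.40, adjusted p = 2.3e-05). RHOB, a small GTPase, and ANGPTL4, a secreted inhibitor of lipoprotein lipase, were lower at 24 h (-1.22 and -1.16, adjusted p = 4.5e-09 and 2.5e-06). Both were already lower at 8 h (-0.81 and -0.53, edgeR adjusted p = 5.4e-07 and 0.0028).

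All 13 ligands, receptors and SMADs were tested. At 8 h 1 was higher and 4 were lower (median log2 fold change -0.07), and at 24 h 6 were higher and 3 lower (median 0.08). Called were 38.5% of the list at 8 h and 69.2% at 24 h, beside 49.6% and 52.5% of all tested genes. The receptors TGFBR3, the accessory receptor that presents ligand, TGFBR2 and TGFBR1 were lower at 8 h (-0.65, -0.48 and -0.29, adjusted p = 1.3e-06, 4.2e-06 and 6.4e-04). At 24 h TGFBR1 was higher, at 134, 129 and 152 CPM against 95.1, 84.0 and 90.4 CPM in untreated cells (0.62, adjusted p = 2.5e-07). The ligand TGFB2 was higher at 24 h, at 278, 282 and 277 CPM against 179, 183 and 190 CPM (0.60, adjusted p = 4.3e-09), as was the activin receptor ACVR2B (0.53, adjusted p = 4.6e-06). ACVR2B was also higher at 8 h (0.20, edgeR adjusted p = 0.018). That 8 h call was lost without untreated replicate 2 or 3 or TEPA 8 h replicate 2 or 3 (edgeR adjusted p = 0.063 to 0.087). Lower at 24 h were TGFBR2 (-0.39, adjusted p = 2.6e-05) and the ligand TGFB1 (-0.32, adjusted p = 2.7e-05), while TGFBR3 was at -0.03 (adjusted p = 0.73). TGFB1 was named after its values were seen, and at 8 h it was not called (-0.07, edgeR adjusted p = 0.19).

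**Figure D4:**
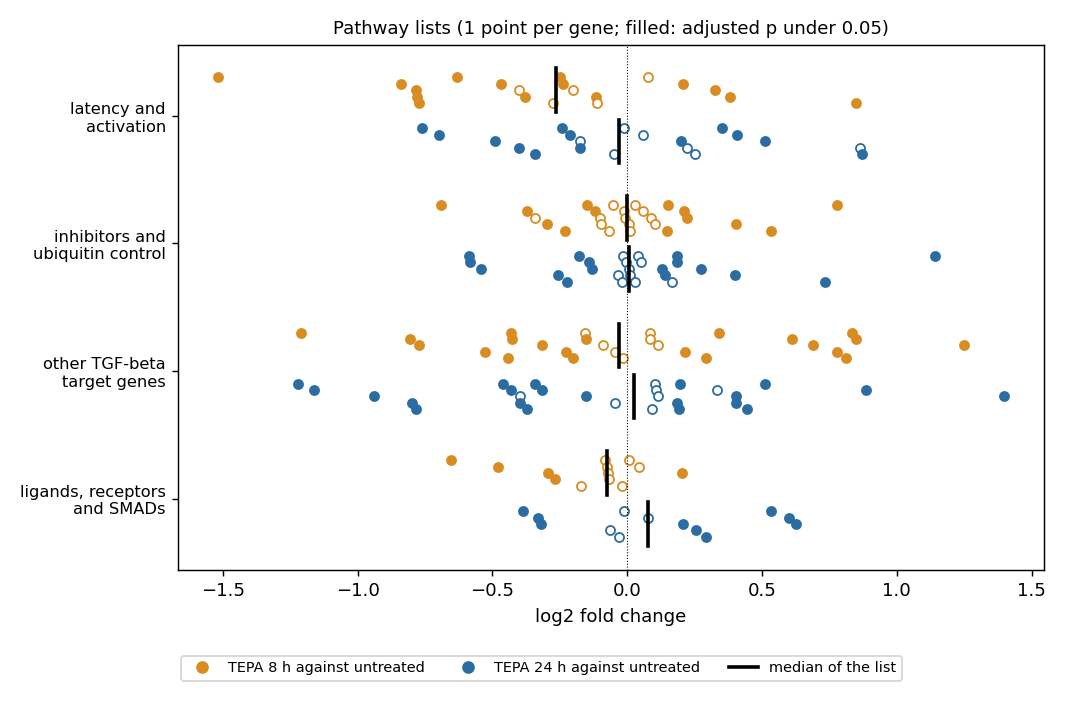
Log2 fold change (x axis) of each tested gene in the 4 pathway lists at 8 h and 24 h against untreated cells, 1 point per gene, filled at an adjusted p under 0.05, with a black line at the median of each list. The median of the latency and activation list is at -0.26 at 8 h and at -0.03 at 24 h, and the other medians lie between -0.07 and 0.08.

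The genes whose log2 CPM was most like each of the 9 over the 9 libraries were taken from 11919 tested genes with a mean of at least 100 counts. Since the libraries fall in 3 groups, such a correlation mostly describes the group pattern, and it is given with no test. They were CIRBP and ENTPD5 for PMEPA1, PTK7 and XYLT2 for TGFBI, SRSF11 and SLC4A7 for SKIL, ARHGAP33 and FAM83G for SKI, ALDH9A1 and TFG for LTBP1, TSPAN15 and RAB5B for LTBP2, PHF12 and KIZ for LTBP3, AC090587.1 and NSD1 for BAMBI, and C16orf74 and PLCG2 for SMURF1. Pearson's r ran from 0.92 for KIZ with LTBP3 to 0.997 for PTK7 with TGFBI.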

How the data were processed

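RNA was sequenced from 9 libraries of MDA-MB-231 cells, 3 untreated, 3 at 8 h and 3 at 24 h of TEPA. The deposited values are raw counts, which the authors made with FastQC, HISAT2 on hg38 and featureCounts, counting read pairs over exons per gene name with strand used (tool versions are not given in the sources used here). Antisense genes that overlap PMEPA1, LTBP1, LTBP2, LTBP3 and SMURF1 therefore should not share their reads, and no gene on the same strand shares exons with any of the 9. Everything else was computed here in R 4.3.3. The filter was filterByExpr (minimum count 10), scaling used TMM factors of 0.978 to 1.039, and the 9 libraries were fitted together with edgeR 4.0.16 (quasi-likelihood test, Benjamini-Hochberg adjustment over 16556 genes). The common biological coefficient of variation came to 0.0481. With 3 libraries against 3, an exact permutation test cannot give a p under 0.10, so none was used. Figures were drawn with matplotlib 3.10.9.

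The 9 genes, the 4 lists and the tests were chosen with earlier results of these data known. Beside the 9 genes, the text names up to 3 genes per list and time with the largest log2 fold change in either direction among those called with a mean of at least 100 counts, the family counterparts LTBP4, SMURF2, SMAD6, SMAD7 and LDLRAD4, and the 2 genes most correlated with each of the 9. TGFB1 was chosen after its values were seen. Some genes of the lists are not reported here by name. The alternatives were RLE and upper-quartile factors, mitochondrial genes left out, DESeq2 1.42.0 (the study's tool), no filter, 10 counts in every library, the replicate number as a block, only the groups compared, an adjusted p under 0.01, and leaving out each library. Gene positions and exon lengths are from GENCODE v44 on GRCh38. The other cell lines of the study were not analysed here.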

Additional observations from a re-analysis of the deposited data

Results flagged for a closer look

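For 8 of the 9 genes, LTBP3 being the exception, the level at 24 h differed from that at 8 h, so that the responses at the 2 times, taken against the same untreated libraries, were unequal. The log2 fold change of 24 h against 8 h was -0.53 for PMEPA1, -0.60 for TGFBI, -0.31 for SKIL, -0.20 for SKI, -0.19 for LTBP1, 0.20 for LTBP2, 0.27 for BAMBI and -0.20 for SMURF1 (edgeR adjusted p from 2.2e-08 for PMEPA1 to 0.014 for SKIL). PMEPA1 was the one of these 8 called in opposite directions at the 2 times, higher at 8 h and lower at 24 h. Of all tested genes, 54.8% were called in this comparison.

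A call between the times was also seen in 19 of the other genes named from the lists and family counterparts by the fixed rule. HTRA1, TGFBR2 and LTBP4 were not called (edgeR adjusted p = 0.57, 0.18 and 0.092). Most of these genes were named for a large change against untreated cells at 1 time, which favours a difference between the times. Their count therefore cannot be set against the 54.8% of all tested genes that were called. Higher at 24 h than at 8 h were NEDD9 (2.61), FBLN1 (1.19), TGFBR1 (0.92), VASN (0.86), SMAD6 (0.74), ITGB3 (0.66), TGFBR3 (0.63), TGFB2 (0.59) and ACVR2B (0.33). Lower at 24 h than at 8 h were FSTL3 (-1.08), COL1A1 (-0.84), FST (-0.79), ANGPTL4 (-0.64), SMAD7 (-0.59), PLAU (-0.51), RHOB (-0.42), SMURF2 (-0.36), NEDD4L (-0.35) and THBS1 (-0.34). TGFB1, chosen after its values were seen, was also lower (-0.24, edgeR adjusted p = 3.1e-04).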

How the results depend on the processing

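The 27 fold changes of the 9 genes (3 comparisons each) were refitted under 18 alternatives, and 451 of the 486 values stayed on the same side of the threshold, 29 calls were lost, 6 were gained and none changed sign as a call. An adjusted p under 0.01 left 3 genes higher at 8 h (PMEPA1, SKIL and SKI) and 1 higher at 24 h (BAMBI), against 5 and 3 at 0.05. Without 1 library, the number of genes higher at 8 h ran from 3 to 5. The lowest count came without untreated replicate 2 or 3 or TEPA 8 h replicate 2 or 3, through BAMBI and LTBP3.

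BAMBI at 8 h was also lost with RLE factors, mitochondrial genes left out, DESeq2, no filter and only the groups compared (0.13 to 0.15, adjusted p = 0.053 to 0.12). SKI at 24 h was lost with no filter (0.10, adjusted p = 0.081), and LTBP3 between the times became a call with no filter or only the groups compared (-0.13 and -0.12, adjusted p = 0.0071 and 0.031). The cause was not tested. Without 1 library, TGFBI at 8 h ran from -0.13 to 0.06 and LTBP3 at 24 h from -0.02 to 0.11, neither ever a call.

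No shared deviation was seen in libraries with the same replicate number. Correlations of their deviations from the group means ran from -0.080 to 0.038 over 9 pairs, against -0.054 to 0.073 over 18 pairs with different numbers. Whether libraries with the same number were handled together is not stated, and these correlations cannot show it. With the replicate number as a block, 4 genes were higher at 8 h and BAMBI at 8 h was the one call lost (0.15, adjusted p = 0.074).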
